A study of Mus musculus with 8 samples.

Results

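Wide promoter regions of single genes were examined in ATAC-seq counts from conventional type 1 dendritic cells (cDC1) of mouse spleen. A region belonged to this set when it lay on chromosomes 1 to 19, spanned at least 1000 bp, and came within 1 kb of either end of exactly 1 protein-coding gene of GRCm38. These conditions held for 587 of the 59906 regions in the table (0.980%), and the 587 regions belonged to 587 different genes. They made up 58.2% of the 1009 regions of that width on these chromosomes. The other wide regions were 140 that touched the ends of 2 or more genes and 282 that lay away from gene ends. The rule for membership used width and position only, and no test between groups entered it. How the common region set was made is not given, so whether the widths depend on signal in these libraries cannot be told.

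The 8 libraries came from sort-purified splenic cDC1, 4 from WT mice and 4 from CD11c-Cre; OPA1 flox mice, labelled OPA1KO. Both groups were primary cells of the same tissue and sort, with no further treatment stated. In the OPA1KO mice, Cre recombinase was driven by the promoter of CD11c, a gene used by dendritic cells and also by some macrophages. The labels gave no age or sex, did not say whether WT mice carried Cre or a flox allele, and did not say whether each library was a separate mouse. The p-values therefore rest on the variation among the 8 libraries alone, part or all of which may be technical. The comparison asks whether loss of OPA1, a GTPase that fuses inner mitochondrial membranes and shapes cristae, goes with a change in open chromatin.

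ATAC-seq uses a transposase that cuts and tags DNA where nucleosomes leave it exposed, so the count over a region reflects how often it was accessible. Many mammalian promoters lie in CpG islands, stretches rich in the dinucleotide CG, and these tend to be free of nucleosomes in most cell types. Genes of general cellular machinery and of regulation often start in such islands. In bulk nuclei, fewer cells with an open region and less opening per cell cannot be told apart.

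The promoter sequence of 427 member genes could be read from a RefSeq table (GRCm38.p6), because an annotated start of the gene lay inside the region. Some of these genes had more than 1 start, which gave 509 windows of 300 bases each. The sequences below are the 250 bases before the most upstream of those starts, printed 5′ to 3′ on the strand of the gene. Capitals mark every match to 14 short motifs searched on both strands, of which the matches here were the GC box GGGCGG, the CCAAT box, the CRE TGACGTCA, the ETS-IRF composite GGAANNGAA and the NF-kB site GGGANNTTC. Gpbp1, Sp1 and Opa3 are shown as 3 of the regions with the highest read density, and Hmga1 as the widest region. Vamp8 is shown as the gene with the lowest CpG ratio of the set, averaged over the starts of each gene, chosen after its value was seen. Zfp948 and Agpat2 are shown for the comparison of WT with OPA1KO, where they had small unadjusted p-values in opposite directions.

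Gpbp1: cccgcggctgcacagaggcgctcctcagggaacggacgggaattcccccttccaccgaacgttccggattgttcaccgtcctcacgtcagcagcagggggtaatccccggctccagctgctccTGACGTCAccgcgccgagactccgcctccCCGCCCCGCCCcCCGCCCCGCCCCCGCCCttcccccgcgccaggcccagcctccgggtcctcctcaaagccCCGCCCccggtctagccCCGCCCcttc
Sp1: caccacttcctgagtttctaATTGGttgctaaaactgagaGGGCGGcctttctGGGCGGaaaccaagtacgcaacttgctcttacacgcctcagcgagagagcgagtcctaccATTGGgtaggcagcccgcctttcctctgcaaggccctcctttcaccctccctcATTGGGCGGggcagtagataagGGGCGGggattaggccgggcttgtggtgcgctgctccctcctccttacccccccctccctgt
Opa3: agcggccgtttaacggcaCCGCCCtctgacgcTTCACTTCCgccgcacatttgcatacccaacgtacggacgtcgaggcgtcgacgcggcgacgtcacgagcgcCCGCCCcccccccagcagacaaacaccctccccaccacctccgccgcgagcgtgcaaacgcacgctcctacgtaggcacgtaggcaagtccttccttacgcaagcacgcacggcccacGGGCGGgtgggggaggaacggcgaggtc
Hmga1: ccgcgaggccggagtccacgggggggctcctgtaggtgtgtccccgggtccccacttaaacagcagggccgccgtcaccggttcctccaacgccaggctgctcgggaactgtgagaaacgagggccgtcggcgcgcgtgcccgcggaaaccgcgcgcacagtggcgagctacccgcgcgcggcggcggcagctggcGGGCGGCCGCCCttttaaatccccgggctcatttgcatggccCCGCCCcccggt
Vamp8: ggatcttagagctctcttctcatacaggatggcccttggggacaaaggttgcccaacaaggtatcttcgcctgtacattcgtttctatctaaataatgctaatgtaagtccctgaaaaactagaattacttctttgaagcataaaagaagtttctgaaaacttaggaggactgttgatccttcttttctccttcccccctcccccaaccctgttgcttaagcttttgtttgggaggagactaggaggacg
Zfp948: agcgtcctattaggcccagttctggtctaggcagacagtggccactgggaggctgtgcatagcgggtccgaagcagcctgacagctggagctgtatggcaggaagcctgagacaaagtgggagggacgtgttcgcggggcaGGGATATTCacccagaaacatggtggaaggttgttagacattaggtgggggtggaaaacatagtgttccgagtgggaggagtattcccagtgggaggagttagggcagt
Agpat2: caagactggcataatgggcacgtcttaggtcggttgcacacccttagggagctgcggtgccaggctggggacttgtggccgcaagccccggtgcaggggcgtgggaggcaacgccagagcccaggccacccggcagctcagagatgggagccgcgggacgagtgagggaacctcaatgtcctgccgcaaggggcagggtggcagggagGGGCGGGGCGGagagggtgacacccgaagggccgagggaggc

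In GRCm38.p6 these stretches are chr13:111490128-111490377 on the minus strand, chr15:102406066-102406315, chr7:19228139-19228388 and chr17:27556324-27556573 on the plus strand, chr6:72390668-72390917 on the minus strand, chr17:21566728-21566977 on the plus strand and chr2:26604418-26604667 on the minus strand. The Gpbp1 stretch held 7 GC boxes and 1 CRE. Gpbp1 encodes a protein named for binding GC-rich promoters. The stretch before Sp1, which encodes a zinc finger factor that binds GC boxes, held 4 GC boxes and 3 CCAAT boxes, and 1 CCAAT match overlapped a GC box. Opa3 encodes a mitochondrial protein and is a gene distinct from Opa1. Its stretch had an observed over expected CpG ratio of 1.25 and held 3 GC boxes and 1 ETS-IRF composite. Hmga1, which encodes an AT-hook chromatin protein, had 3 GC boxes, and Agpat2, which encodes an acyltransferase of phospholipid synthesis, had 2. Zfp948, a zinc finger gene, held 1 match to the NF-kB letters. Vamp8, which encodes a SNARE protein of endosomal fusion, held 0 matches, and only 59 bases of its region lay upstream of the start. A match to these letters is a description of the sequence and not a bound site.

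The 509 windows were mostly rich in GC and CpG. The median GC content was 68.0%, against 61.7% in 5844 windows of genes whose single-gene end region was under 1000 bp and 56.3% in all 21263 protein-coding windows. The median observed over expected CpG ratio was 0.865, against 0.784 and 0.567. A ratio under 0.4 was found in 12 member windows (2.36%), in 10.1% of windows with a narrower region and in 39.4% of all windows. Averaged over the starts of a gene, the ratio ran from 0.306 at Vamp8 to 1.29 at Dmxl2, a vacuolar ATPase regulator also named after its value was seen. The transposase's own sequence preference was not tested.

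**Figure D1:**
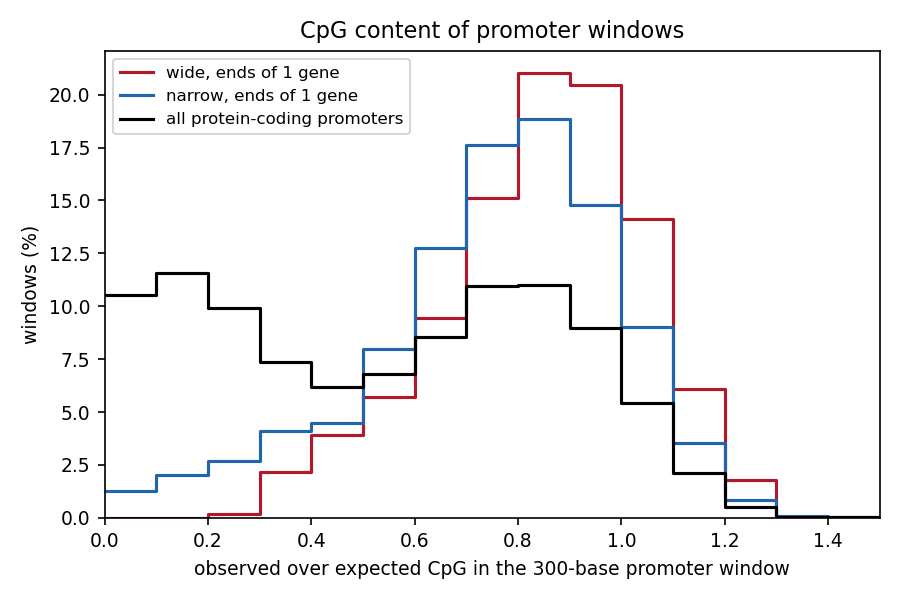
Observed over expected CpG ratio of 300-base promoter windows (x axis, steps of 0.1) against the percent of windows in each step (y axis) for wide single-gene regions (509 windows), narrower single-gene end regions (5844) and all protein-coding promoters (21263). The windows of wide regions lie mostly between 0.6 and 1.2, and the low-CpG peak of all promoters is nearly missing from them.

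The GC box was present in 79.2% of member windows, 69.8% of windows with a narrower region and 46.2% of all windows. The CCAAT box went the other way, with 29.3% of member windows against 39.7% and 38.2%. The TATA box, spelled TATAAA, was found in 4.52%, 6.61% and 12.6% of the same sets. The remaining shares differed less in percentage points, though not always in ratio. They were 10.6%, 11.2% and 7.84% for the E-box CACGTG, 6.68%, 8.57% and 5.15% for the ETS site CCGGAAGT, and 5.89%, 6.28% and 3.52% for the NRF1 site GCGCATGC. For factors of dendritic cells, the ETS-IRF composite was in 6.68%, 6.83% and 7.76% of windows, and the NF-kB letters were in 2.75%, 3.83% and 3.80%. The interferon response element GAAANNGAA, which can overlap the composite, was in 4.91%, 6.90% and 8.15%. The AP-1 site TGANTCA was in 4.72%, 4.50% and 6.99%, the CRE in 4.52%, 3.59% and 2.23%, and the YY1 site AAGATGGCG in 2.95%, 3.06% and 1.83%. The KLF site GGGTGTGG was in 3.14%, 4.50% and 3.63%, and the RUNX site TGTGGTT in 2.16%, 3.90% and 4.71%. Matches of different motifs could overlap, as the CCAAT and GC boxes do at Sp1. The 3 sets also differ in GC content (medians 68.0%, 61.7% and 56.3%), and how far these shares follow base composition was not tested. Of the 427 genes, 62 (14.5%) had 2 or more annotated starts inside the region, against 7.74% of genes with a narrower one, and a wider region can hold more starts. The median region began 465 bp upstream of its most upstream start and ran 682 bp downstream of it, so that its centre lay 109 bp into the gene.

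Most members were little wider than the limit. The median width was 1126 bp, the quartiles were 1055 and 1234 bp, 242 were under 1100 bp and 31 reached at least 1500 bp. The widest was that of Hmga1 at chr17:27555156-27557086, with 1930 bp. It was followed by Arid1b, a BAF chromatin remodelling subunit, with 1903 bp, by Trim27, a ubiquitin ligase, with 1802 bp, and by Nrip1, a nuclear receptor corepressor, with 1782 bp. Next came the kinase gene Cdk17 with 1757 bp, the Rac regulator Cyrib with 1738 bp, Kctd12 with 1717 bp and the mucin-type glycosyltransferase gene Galnt7 with 1696 bp. Just inside the limit stood Fam168b, BC048403 and Eif5a with 1000 bp and 51.8, 58.1 and 204.7 CPM per kb of region, where CPM is a count scaled to a common library total. Just outside it were Grk6, Ccnh and Ifnar2 with 999 bp and 172.6, 66.1 and 21.8 CPM per kb.

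For 462 members the strand of the gene was given, and 452 of these touched its start only. Another 4 touched both ends, and 6 touched only the far end, so those 6 were not at the annotated start: Mrpl58, Mthfd1, Il1b, Lor, Ifitm2 and Ripor1. The strand was not given for the remaining 125. The end of the gene lay inside the region in 488 members and up to 1 kb outside it in 99. The genes were long, with a median span of 39.3 kb against 23.8 kb for genes with a narrower single-gene end region. An end of a long noncoding RNA gene also lay within 1 kb of 106 members (18.1%), against 12.3% of the narrower regions, and a wider region reaches more of its neighbourhood.

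Read density was high in most members. Levels below are CPM scaled by TMM factors, averaged over the 8 libraries, and regions were compared per kb of width. The median was 56.9 CPM per kb, the quartiles were 35.9 and 93.2, and the extremes were 9.21 and 312.5. Narrower single-gene end regions had a median of 40.7, wide regions shared by several gene ends 65.4, wide regions away from gene ends 39.9, and all tested regions 20.1 CPM per kb. The ranges of these classes overlapped broadly, and 175 members lay below the median of the narrower single-gene regions. An annotated start lay inside the region for 427 member genes (587 regions) and for 5388 genes of the narrower class (10411 regions). The part of this in the differences between classes was not tested. Across all members, density was nearly unrelated to width (Spearman correlation -0.02). Across the 427 with an annotated start inside, it was nearly unrelated to GC content (0.02) and to the CpG ratio (0.11), each averaged over starts. These are descriptions over regions of the same 8 libraries.

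**Figure D2:**
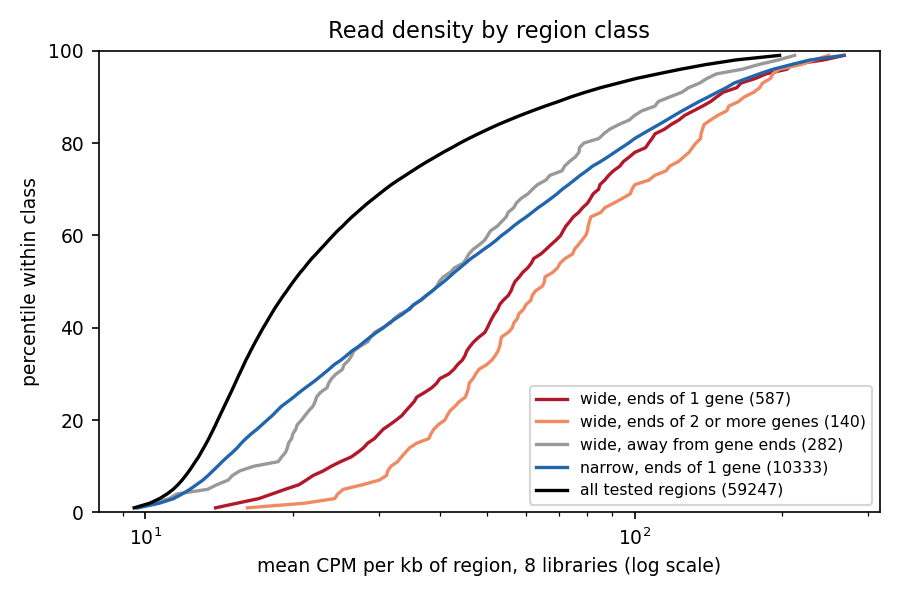
Mean CPM per kb of region over 8 libraries (x axis, log scale) against the percentile within each class (y axis). Wide regions are those at the ends of 1 gene (587), at the ends of 2 or more genes (140) and away from gene ends (282). The other curves are narrower regions at the ends of 1 gene (10411) and all tested regions (59247). The legend gives the 10333 of these narrower regions that were tested. The curve of the 587 wide regions crosses the middle at 56.9 CPM per kb, between the narrower single-gene regions (40.7) and the wide shared regions (65.4).

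The 8 densest members included several genes of transcriptional control. Gpbp1 had 313, Sp1 306, the RNA-binding ubiquitin ligase gene Mex3c 294 and the BTB zinc finger gene Zbtb20 293 CPM per kb. Rab40c, a small GTPase of the Rab family, had 285, the calmodulin-binding activator gene Camta1 273, Opa3 267 and the nuclear receptor coregulator gene Pnrc1 265 CPM per kb. At the other end stood 1110032F04Rik with 9.21, Syde2 with 10.3, Zswim5 with 12.4 and Rnf217, a RING finger gene, with 12.6 CPM per kb.

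At Gpbp1 (chr13:111489731-111490747) the 4 WT libraries had 299.9, 373, 281 and 344 CPM over the region, and the 4 OPA1KO libraries 309.9, 314, 333 and 285 CPM. At Sp1 (chr15:102405287-102406392) the WT values were 312, 379, 305 and 336 and the OPA1KO values 354, 325, 381 and 314 CPM. The 2 groups overlapped at both genes. Opa3 (chr7:19227817-19228997) had 279, 365, 304 and 309.9 CPM in the WT libraries and 334, 326, 348 and 255 in the OPA1KO libraries, with WT replicate 2 highest and OPA1KO replicate 4 lowest. The log2 difference, OPA1KO over WT, was -0.06 ± 0.08 (SE) at Gpbp1, 0.05 ± 0.08 at Sp1 and 0.0046 ± 0.09 at Opa3. Zbtb20 (chr16:42874959-42876337) had 424, 401, 435 and 415 CPM in the WT libraries and 388, 386, 387 and 394 in the OPA1KO libraries, 419 ± 14.2 against 389 ± 3.34 (SD, n = 4 each). All 4 OPA1KO values lay below all 4 WT values there, with a log2 difference of -0.11 ± 0.06, and edgeR's adjusted p was 0.826. At the widest region, Hmga1, the WT values were 123, 133, 107 and 126 and the OPA1KO values 122, 139.9, 122 and 117 CPM. At Arid1b they were 43.1, 50.1, 55.3 and 47.2 in WT and 48.4, 48.6, 46.0 and 46.3 in OPA1KO. Neither pair of groups separated.

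In gene function, 117 of the 587 genes stood in at least 1 of 32 lists of pathways, complexes and cell type markers. Of all 8932 genes with a tested single-gene end region, 6.57% had a member, and the lists are described beside that share. Chromatin regulators had the largest share of the 32 lists, 18 of 69 genes with such a region (26.1%). They included SET domain and Polycomb genes (Setd5, Setd1a, Eed), histone demethylases (Kdm3a, Kdm3b), DNA demethylation (Tet2, Tet3), remodelling (Chd1, Chd7, Smarca5, Ino80, Srcap, Arid1b), histone acetylation and deacetylation (Kat6a, Hdac2), Asxl1 and the insulator protein gene Ctcf. Ubiquitin and proteasome genes followed with 23 of 137 (16.8%), which included the ubiquitin gene Ubb, the conjugating enzymes Ube2d3 and Ube2n, the scaffold Cul3 and the F-box genes Fbxo11 and Fbxo30. Immediate early and AP-1 genes had 7 of 44 (15.9%): Nfkbia, Jund, Egr1, Dusp1, Fosl2, Maff and Klf4. Cytoskeletal and small GTPase genes had 9 of 82, and splicing genes 11 of 106 (10.4%). Membership counts in these lists depend on width, which the choice of regions used.

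Other lists were close to the overall share or below it. RNA polymerase II genes had 4 of 41 (9.76%: Ell, Cdk9, Med13l and Cdk12), innate sensing and NF-kB genes 4 of 44 (9.09%: Nfkbia, Tnfaip3, Nfkb1 and Tab2), and translation genes 9 of 102 (8.82%), of which Rps6ka1 is a kinase gene that entered by its name. Zinc finger genes of the Zfp series had 15 of 244 (6.15%). Apoptosis genes had 2 of 20, the death inhibitor gene Cflar and the BH3-only gene Pmaip1. Cell cycle genes had 3 of 33 (9.09%), the S-phase regulators E2f1 and Ccne2 and the kinase gene Plk2. Cytokine receptors had 2 of 25 (the TNF receptor gene Tnfrsf1b and the interleukin-6 receptor gene Il6ra), and the integrated stress response and NRF2 list had 2 of 29 (Hspa5 and Nfe2l2). Nutrient sensing had 2 of 36 (the lipid kinase gene Pik3ca and the mTOR complex gene Rictor), costimulation and maturation 1 of 24 (the cytokine signalling suppressor Socs2), MHC class I presentation 1 of 14 (the phagosome GTPase gene Rab43) and autophagy 1 of 30 (the kinase gene Ulk2). Dendritic cell transcription factors had 2 of 33 (6.06%), Bhlhe40 and Bach2. Mitochondrial respiration and ribosome genes had 3 of 104 (2.88%). They were Cox20 and Cox7a2l, both named for cytochrome c oxidase, and the mitochondrial ribosome gene Mrpl58. No member belonged to mitochondrial dynamics and biogenesis (0 of 24 genes), interferon response (0 of 30), MHC class II presentation (0 of 17), core histones (0 of 17) or cDC1 markers (0 of 17). Of 89 marker genes of 9 cell types with a single-gene end region, only Klf4, on the cDC2 list, had a member.

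**Figure D3:**
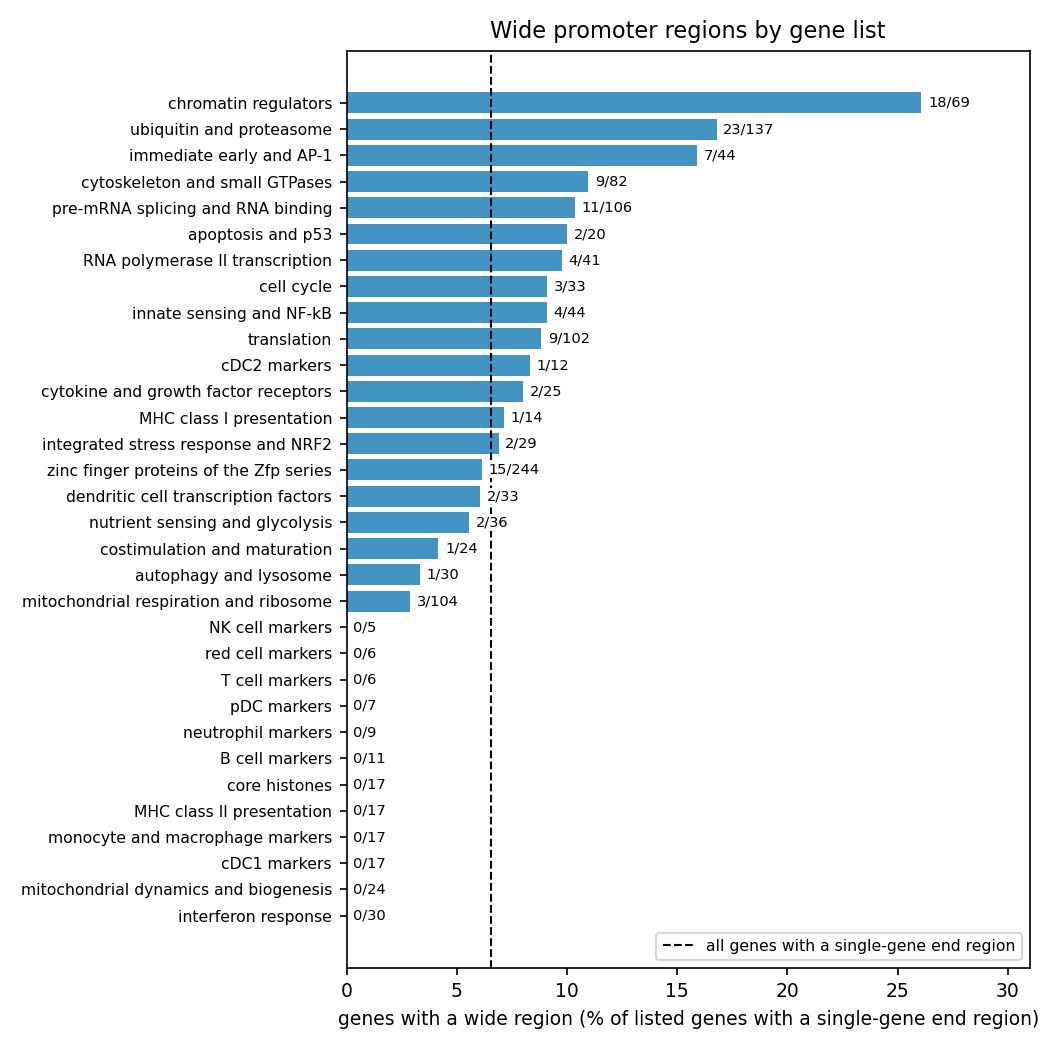
Percent of listed genes with a single-gene end region whose region is a wide one (x axis) for 32 gene lists (y axis), with the counts beside each bar and a dashed line at 6.57%, the share among all 8932 genes with such a region. Chromatin regulators reach 18 of 69, and 12 lists, most of them cell type markers, have 0.

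Genes used to define cDC1 had narrower regions, at 68.3 (Naaa), 65.6 (Cadm1), 50.3 (Irf8), 27.4 (Clec9a), 22.8 (Tlr3) and 18.7 (Cd8a) CPM per kb. Markers of other cells lay in part within that range, at 34.8 (Csf1r, macrophages), 26.7 (S100a8, neutrophils), 21.3 (Ms4a1, B cells), 15.3 (Siglech, plasmacytoid dendritic cells), and 12.4 (C1qa and C1qb, macrophages), so these regions did not set cDC1 apart cleanly. Summed over the end regions of 17 cDC1 markers, the level was 462 to 493 CPM in WT and 474 to 521 CPM in OPA1KO libraries. Of the cDC1 markers, Itgax, the gene of CD11c, had 57.5 CPM per kb and a log2 difference of 0.47 ± 0.15 (edgeR adjusted p = 0.503). The cDC1 genes named above ran from -0.33 ± 0.21 at Clec9a to 0.36 ± 0.24 at Cd8a. Cre was driven by the CD11c promoter in OPA1KO mice, and whether reads of that construct entered the Itgax count was not tested. Over the end regions of 17 monocyte and macrophage markers the summed level was 260 to 304 CPM in WT and 238 to 274 in OPA1KO libraries. Log2 differences were -0.87 ± 0.26 at C1qb (edgeR adjusted p = 0.417), -0.62 ± 0.41 at C1qa and -0.04 ± 0.17 at Csf1r. The levels of C1qb and C1qa were low, 5.94 and 2.54 CPM, against 16.3 CPM at Csf1r. Differences of the other markers on that list are not given here. The part of monocytes and macrophages in the differences of the members was not tested. The region at Opa1 itself was 490 bp wide with 40.7 CPM, so it was no member, and its count says nothing of whether the gene was deleted. Library totals ran from 4660826 to 7590578 counts, and a member held 40 to 2893 counts in a library (median 415), against a median of 42 over all regions.

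No member passed the test of OPA1KO against WT. With edgeR's quasi-likelihood test over 59247 regions and Benjamini-Hochberg adjustment, 0 of 587 members had an adjusted p under 0.05, beside 12 of all regions tested (0.0203%). The smallest adjusted p of a member was 0.416. DESeq2 and limma-voom also called 0 members. At an unadjusted p under 0.05 they had 18 (3.07%, against 5.28% of all regions) and 27 (4.60%, against 6.30%). Without adjustment, 26 members (4.43%) had p under 0.05, against 6.38% of all regions tested. Of these, 23 were lower in OPA1KO (3.92%, against 3.46% of all regions) and 3 were higher (0.511%, against 2.92%), so the share of nominal results was near or under the background. The count of 26 became 43 without WT replicate 2 (7.33%, against 8.56% of all regions) and 13 without WT replicate 4 (2.21%, against 5.50%). It was 16 without OPA1KO replicate 1 (2.73%, against 5.96%) and 17 without OPA1KO replicate 2 (2.90%, against 5.93%).

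Groups did not overlap at 29 members (4.94%, against 3.95% of all regions). All OPA1KO libraries lay below all WT libraries at 26 of these (4.43%, against 2.11%) and above them at 3 (0.511%, against 1.84%). The log2 differences of the 587 members ran from -0.46 to 0.37, and 0 exceeded 0.5 in size. Their median was -0.05, and 407 members (69.3%) were below 0, against 50.7% of all regions tested. Narrower single-gene end regions had a median of -0.03 with 59.2% below 0, and wide regions shared by several gene ends -0.04 with 69.3%. Wide regions away from gene ends also had -0.04, with 63.5% below 0. The excess of values below 0 shrank with another scaling, to 57.8% with loess offsets (all regions 49.6%) and 61.3% with total counts (all regions 46.7%). Without WT replicate 2 it was 60.0% (all regions 47.9%).

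The members together took 5.13%, 5.12%, 5.07% and 5.16% of the counts in the 4 WT libraries and 4.95%, 5.07%, 5.07% and 5.01% in the 4 OPA1KO libraries. The means were 5.12% ± 0.0371 and 5.02% ± 0.0578 (SD, n = 4 each), a difference of -0.0948 percentage points, and the lowest WT value and the highest OPA1KO value were both 5.07%. WT replicate 2 was the highest of the 8 libraries at 193 members (32.9%), against 17.2% of all regions tested. OPA1KO replicate 1 was the lowest at 133 members (22.7%, against 12.3%) and OPA1KO replicate 4 at 117 (19.9%, against 14.2%). The part of these libraries in the lower OPA1KO medians was not tested beyond leaving each out.

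The 95% interval of the log2 difference reached a median of 0.20 to each side in members and 0.51 over all regions tested. It lay wholly within 1.25-fold in either direction for 384 members (65.4%, against 9.88% of all regions) and within 1.5-fold for 574 (97.8%, against 37.3%). It lay within 2-fold for 586, with Il1b as the exception.

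**Figure D4:**
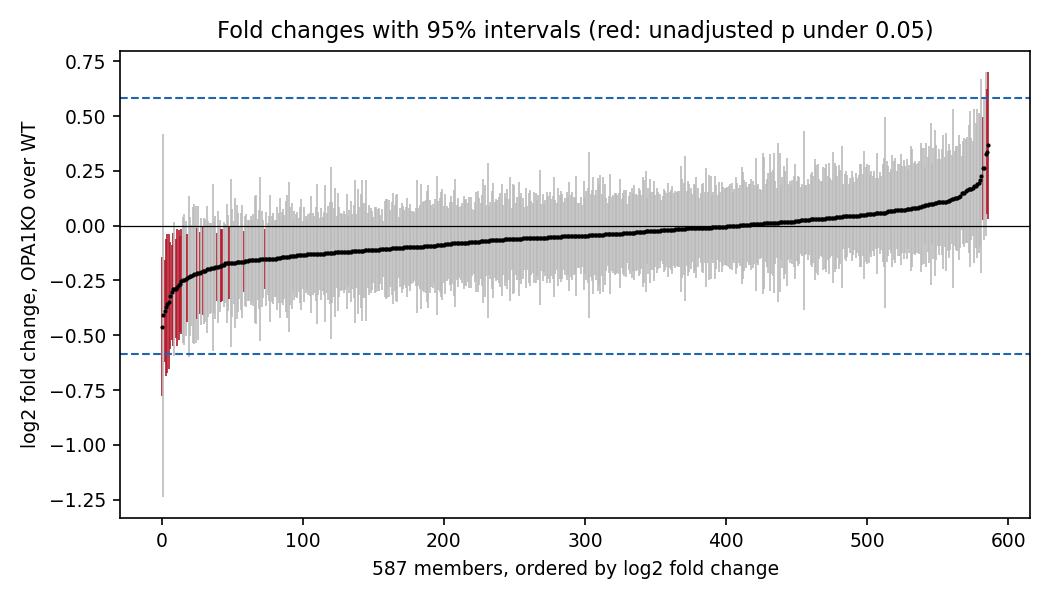
Log2 fold change of OPA1KO over WT (y axis, points) with its 95% interval (vertical lines) for the 587 members ordered by fold change (x axis, rank). Red lines are the 26 members with unadjusted p under 0.05, dashed lines mark 1.5-fold in either direction, and 574 intervals lie between them.

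Of the members with the smallest p on the lower side, the first was Zfp948 (chr17:21566225-21567333). Its WT libraries had 48.2, 40.9, 47.3 and 43.6 CPM and its OPA1KO libraries 30.8, 35.0, 33.8 and 37.9 CPM, and the groups did not overlap. The means were 45.0 ± 3.41 and 34.4 ± 2.96 CPM (SD, n = 4 each), and the log2 difference was -0.39 ± 0.11 (95% interval -0.62 to -0.16, edgeR unadjusted p = 0.00185, adjusted p = 0.416). Cav2, which encodes a caveolin of membrane caveolae, had 25.4, 19.2, 22.8 and 24.8 CPM in the WT libraries and 15.8, 19.6, 15.0 and 16.7 in the OPA1KO libraries. Here OPA1KO replicate 2 lay above WT replicate 2, and the log2 difference was -0.46 ± 0.16 with an adjusted p of 0.544 in edgeR.

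Slc36a4, which encodes an amino acid transporter, had 46.9, 50.4, 50.7 and 57.2 CPM in the WT libraries and 40.0, 42.1, 43.5 and 40.4 in the OPA1KO libraries, -0.30 ± 0.11 on the log2 scale. The proteasome subunit gene Psma3 had 41.7, 43.8, 40.3 and 42.9 CPM in the WT libraries and 33.6, 34.5, 35.8 and 34.5 in the OPA1KO libraries, -0.29 ± 0.11. Septin7, a gene of septin filaments, had 155, 167, 159 and 172 CPM in WT, against 143, 137, 150.3 and 143 in OPA1KO, -0.19 ± 0.08. The 2 groups were separate at each of these 3 genes, and the edgeR adjusted p-values were 0.562, 0.645 and 0.692. The remaining 3 of the 8 smallest were the phosphatase gene Ppp5c (-0.32 ± 0.12), the sorting nexin gene Snx16 (-0.27 ± 0.11) and Ralgps2, a Ral exchange factor gene (-0.37 ± 0.15).

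On the higher side 3 members had an unadjusted p under 0.05. Pde3b, which encodes a cyclic nucleotide phosphodiesterase, had 23.6, 25.6, 22.0 and 20.5 CPM in the WT libraries and 32.5, 25.9, 26.2 and 31.3 in the OPA1KO libraries. Hspa1b, which encodes an inducible Hsp70 chaperone, had 14.0, 14.5, 12.7 and 13.5 CPM in the WT libraries and 18.9, 18.3, 17.7 and 15.6 in the OPA1KO libraries. Both pairs of groups were separate, with log2 differences of 0.34 ± 0.14 and 0.37 ± 0.16 and edgeR adjusted p-values of 0.698 and 0.743. Hspa1b has a near-identical neighbouring copy, so reads of the 2 could have been shared or lost in mapping. Agpat2 had 37.7, 34.9, 31.9 and 32.8 CPM in WT, against 44.1, 43.5, 40.4 and 36.9 in OPA1KO, and its groups overlapped (0.26 ± 0.12, edgeR adjusted p = 0.738). The other 5 of the 8 smallest p-values on this side were above 0.05. They belonged to Ube2n (0.15 ± 0.08), the glycogen-binding protein gene Stbd1 (0.33 ± 0.18), the clathrin light chain gene Cltb (0.26 ± 0.16), Lrba (0.17 ± 0.11) and the transcription elongation kinase gene Cdk12 (0.17 ± 0.11). The third member whose OPA1KO libraries all lay above WT, Arsb, encodes a lysosomal sulfatase and is named after its value was seen.

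**Figure D5:**
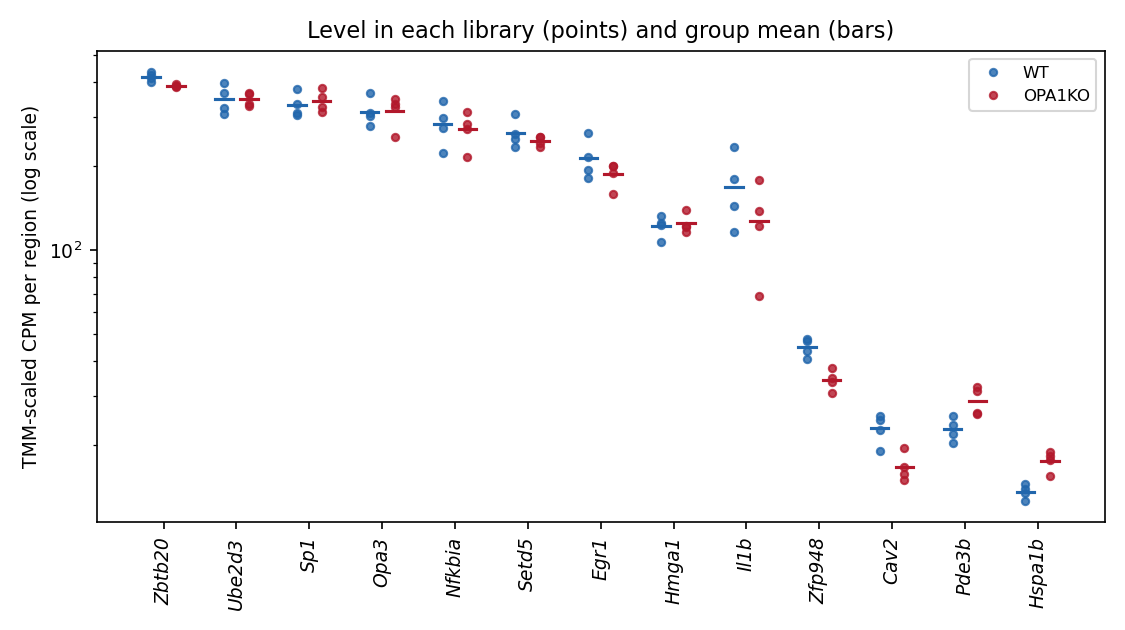
TMM-scaled CPM per region (y axis, log scale) in each of the 4 WT and 4 OPA1KO libraries (points) with the group mean (bars) for 13 members (x axis). Groups overlap at most of them and are separate at Zbtb20, Zfp948, Pde3b and Hspa1b, and the points of Il1b spread most.

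Within the lists, the differences were small. Among the 18 chromatin regulators 13 were below 0, with a median of -0.04 and a range from -0.13 (Chd1) to 0.07, and 0 had an unadjusted p under 0.05. That median was -0.0080 without WT replicate 2, with 10 of 18 below 0, -0.017 without OPA1KO replicate 1 and -0.011 with loess offsets. Setd5, a SET domain gene, had 249.8, 309, 234 and 260.4 CPM in the WT libraries and 254, 234, 255 and 242 in the OPA1KO libraries, with WT replicate 2 highest. Of 23 ubiquitin and proteasome genes 14 were below 0 (median -0.02), and Psma3 alone had a p under 0.05. Ube2d3 had 308, 398, 324 and 366 CPM in WT, against 329, 367, 364 and 333 in OPA1KO, a log2 difference of -0.0017 ± 0.08. In the Zfp series 12 of 15 were below 0 (median -0.10), with Zfp948 the one under 0.05, and among small GTPase and cytoskeletal genes 7 of 9 (median -0.08). Without WT replicate 2 these medians were -0.05, with 9 of 15 below 0, and -0.03, with 6 of 9. The Zfp median was -0.05 without OPA1KO replicate 2, and the other was -0.04 without WT replicate 4. Rap2a, a Ras-family GTPase gene, was the one of these 9 under 0.05, with 334, 328, 341 and 328 CPM in the WT libraries and 272, 307, 316 and 293 in the OPA1KO libraries. Its groups were separate (-0.16 ± 0.07, edgeR adjusted p = 0.698).

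Splicing genes had 6 of 11 below 0 (median -0.02) and translation genes 6 of 9 (median -0.01), and none of these had an unadjusted p under 0.05. Eif1, which encodes a start codon selection factor, had 203, 298, 201 and 239 CPM in the WT libraries and 230.2, 249, 255 and 202 in the OPA1KO libraries, a log2 difference of -0.01 ± 0.11. With loess offsets the median was above 0 for the splicing, translation and ubiquitin lists, at 0.01, 0.03 and 0.01. With total counts it was also above 0 for the translation list (0.01) and the ubiquitin list (0.0027). Without OPA1KO replicate 4 it was 0.01 for splicing and 0.0053 for translation, without WT replicate 2 it was 0.0075 for splicing, and without WT replicate 4 it was 0.0028 for translation. Among the smaller lists, the median was -0.15 over the 2 apoptosis genes, -0.11 over the 2 nutrient sensing genes, -0.04 over the 4 NF-kB genes and 0.01 over the 4 RNA polymerase II genes, and none of these had an unadjusted p under 0.05. The 3 members on the mitochondrial respiration and ribosome list were above 0, at 0.04 ± 0.08 for Cox20, 0.14 ± 0.12 for Cox7a2l and 0.03 ± 0.12 for Mrpl58. The region of Mrpl58 touched only the far end of its gene.

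At 2 genes of stress responses the interval of the difference included 0. Hspa5, which encodes the chaperone BiP of the endoplasmic reticulum, had 159.6, 208, 177 and 188 CPM in the WT libraries and 199.9, 188, 205 and 169 in the OPA1KO libraries (95% interval of the log2 difference -0.11 to 0.23). Nfe2l2, which encodes the oxidative stress factor NRF2, had 163, 181, 173 and 172 CPM in WT, against 179.8, 189, 181 and 152 in OPA1KO (95% interval -0.13 to 0.19). Of the dendritic cell factors, Bhlhe40 had 150.2, 169, 172 and 170.0 CPM in the WT libraries and 151, 147, 171 and 138 in the OPA1KO libraries. Bach2, a BTB-bZIP repressor gene, had 45.5, 43.0, 48.8 and 43.1 CPM in WT, against 47.8, 38.6, 40.0 and 48.6 in OPA1KO. The intervals were -0.29 to 0.04 and -0.27 to 0.19, and groups overlapped at all 4 genes.

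The SD between libraries of 1 group, on the log2 scale, had a median of 0.13 over all members. At the 7 immediate early members it ran from 0.13 (Jund) to 0.28 (Dusp1). Nfkbia, which encodes the NF-kB inhibitor IkBa, had 224, 343, 275 and 297 CPM in the WT libraries and 283, 272, 314 and 216 in the OPA1KO libraries. Egr1, an immediate early zinc finger gene, had 181, 264, 194 and 217 CPM in WT, against 189, 201, 200.5 and 159 in OPA1KO, and Tnfaip3, which encodes the NF-kB feedback protein A20, had 113, 153, 111 and 125 CPM in WT, against 138, 132, 139 and 111 in OPA1KO. WT replicate 2 was the highest of the 8 at each of these 3 genes, and OPA1KO replicate 4 was the lowest at Nfkbia and Egr1. Il1b, which encodes the cytokine interleukin-1 beta, is named after its values were seen, as the member with the largest spread (SD of 0.51 on the log2 scale within groups). It had 116, 235, 144 and 179.6 CPM in the WT libraries and 122, 138, 179 and 68.4 in the OPA1KO libraries, with the same 2 libraries at the ends. Its log2 difference was -0.41 ± 0.34 (95% interval -1.24 to 0.42). It was -0.20 without OPA1KO replicate 4, -0.20 without WT replicate 2 and -0.62 without OPA1KO replicate 3. The region, chr2:129362954-129364626, lay at the far end of the gene and not at its annotated start. Over the 7 immediate early members, 6 were below 0 with a median of -0.05, and the median was 0.05 without WT replicate 2 and 0.03 without OPA1KO replicate 4.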

How the data were processed

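Counts were those the authors deposited, 1 whole number per region and library in a single table, with no normalization. The submitters' processing notes list MACS2 2.1.0.20150603, Picard 1.65, bedtools, SAMtools and cutadapt 1.9, and the build as mm10 or GRCm38. Their roles, any transposase shift, how the common region set was made, and whether starts count from 0 or 1 are not given in the sources used here. Gene spans and promoter sequences came from RefSeq tables (GRCm38.p6, 21900 protein-coding genes), so exons, introns and UTRs were not assigned.

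Regions passing edgeR's filterByExpr (59247, all 587 members among them) were fitted with edgeR 4.0.16 (R 4.3.3): TMM factors (0.947 to 1.03), quasi-likelihood test, Benjamini-Hochberg adjustment over all of them, calls at 0.05. Error terms of log2 differences are standard errors from that test. Alternatives were DESeq2 1.42.0, limma-voom 3.58.1, other scalings, filters and widths, a replicate block, and leaving out each library. The fit was tested on simulated counts with known changes. It recovered 2 of 25 members changed 1.25-fold, 19 of 25 changed 1.5-fold and 25 of 25 changed 2-fold. Among other regions it recovered 0, 1 and 13 of 25 at the same folds. It also called 13 unchanged regions, with 59009 regions in the fit. Counting intervals cover counting error only. Within groups, libraries differed by more than counting noise, so none was counted as a duplicate. The members and lists were chosen with earlier results of these data known. Apart from cell type markers, Opa1 and members named after their values were seen, genes given values were drawn by rule. The rule took the 8 smallest p-values in each direction, the 8 widest, the 8 densest and 4 least dense members. It also took up to 4 members of each list with the highest CPM and 1 with the smallest p, and those nearest the width limit. The marker regions given values and that of Opa1 are not members and were picked without such a rule. Other genes of a list are named for their role, without values.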

Additional observations from a re-analysis of the deposited data

Results flagged for a closer look

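Among 27 members followed by library and the share of counts in all members, the 4 WT libraries at Bhlhe40, a helix-loop-helix transcription factor gene of dendritic cells, held 1 that stood apart. WT replicate 1 had 150.2 CPM, and the other 3 had 168.6, 171.7 and 170.0 CPM. The gap between the lowest library and the next took up most of the range of the group by Dixon's criterion. This was 1 of 56 groups of 4 libraries checked, and chance flags about 1 in 20 such groups. Over all members, 62 of 1174 groups met the criterion (5.28%).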

How the results depend on the processing

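The count of members called after adjustment was 0 in every alternative run, and the median log2 difference was below 0 in each, between -0.06 and -0.02. Members with unadjusted p under 0.05 numbered 26 (4.43%, against 6.38% of all regions), and 13 to 43 when each library was left out. The latter were 2.21% to 7.33% of members, against 5.40% to 8.56% of all regions, and below the all-region share in each run. With regions of at least 800 bp, 72 of 1623 (4.44%) had such a p, and with at least 1500 bp 1 of 31 (3.23%). The difference in the share of counts was -0.0948 points, and -0.111 to -0.0694 with each library left out. It was -0.177 with at least 800 bp and -0.0062 with at least 1500 bp. These sets differ in size (1623 and 31 regions, against 587), so their point differences are not on the same scale. The median log2 difference was -0.04 in both, against -0.05. At an unadjusted p under 0.05, DESeq2 gave 18 members (3.07%, against 5.28% of all regions) and limma-voom 27 (4.60%, against 6.30%).

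Same-numbered libraries did not deviate together (correlations -0.13 to -0.01, 0 of 4 numbers matched best with their own), so the numbers were not used as pairs. With a replicate block, 16 members (2.73%, against 5.12% of all regions) had unadjusted p under 0.05. The differences at Eif1 and Ube2d3 were then 0.0031 and 0.0040.

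Of 35 single members followed, 25 kept their sign in every alternative (529 of 560 values). Those that changed were all near 0. Eif1 was 0.030 with loess offsets, 0.0056 with a stricter filter and 0.014 with total counts, and Ube2d3 was 0.038, 0.013 and 0.021. With each library left out, the values ran from -0.068 to 0.12 at Eif1, -0.051 to 0.068 at Ube2d3, -0.097 to 0.027 at Arid1b, -0.092 to 0.014 at Bach2, -0.12 to 0.010 at Gpbp1, -0.022 to 0.073 at Hmga1, -0.0078 to 0.091 at Nfe2l2, -0.16 to 0.034 at Nfkbia, -0.045 to 0.097 at Opa3 and -0.0089 to 0.11 at Sp1. The cause was not tested. At the median member the 95% interval reached 0.20 to each side on the log2 scale, which carries both counting error and the spread between libraries.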
